A study of Homo sapiens with 24 samples.

Results

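RWPE1 cells, an immortalized and non-tumorigenic line of human prostate epithelium, were cultured with the active vitamin D hormone 1,25(OH)2D at 100 nM or with vehicle (0.1% ethanol), and RNA was hybridized to Affymetrix U133 Plus 2.0 arrays. The question addressed here is how the response at 48 h differed from the response at 6 h. It uses 16 of the 24 arrays of the series, 4 from each of 4 groups, which are vehicle at 6 h, 1,25(OH)2D at 6 h, vehicle at 48 h and 1,25(OH)2D at 48 h. The 8 arrays at 24 h entered no test of that difference and are given beside it. All groups shared the line, the serum-free keratinocyte medium and treatment before the cells were confluent. The 48 h cultures of both arms had their medium replaced at 24 h, which the 6 h cultures did not, so time of exposure, time in culture and the change of medium cannot be told apart within an arm. A single line was used, and the labels call its samples biological replicates without naming separate passages for each, so the p-values measure the spread between these samples.

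The receptor for 1,25(OH)2D is a nuclear receptor that pairs with a retinoid X receptor on DNA and can act within hours. Genes bound by it can encode regulators or enzymes that act back on the hormone, the best known being CYP24A1, whose product inactivates 1,25(OH)2D. A response that is measured at an early and a late time can therefore be steady, fade, arise late or turn.

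For each gene the effect at a time is the mean of the 1,25(OH)2D arrays minus the mean of the vehicle arrays on the log2 scale, and the difference between times is the effect at 48 h minus the effect at 6 h. A negative difference means that the effect was lower at 48 h. Calls are limma tests with a Benjamini-Hochberg adjusted p under 0.05 over all 26036 probe sets tested, and each of 12026 genes is represented by the brightest of its probe sets that carry no other gene's symbol. The difference was called for 933 probe sets (3.58% of those tested), of which 369 were higher (1.42%) and 564 lower (2.17%) at 48 h. Among genes it was called for 564, or 4.69% of those tested, with 238 higher (1.98%) and 326 lower (2.71%). The median difference over all genes was 0.01.

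The called genes were sorted by their calls at each time. A response was reversed where both times were called with opposite signs (10 genes), and lost where the effect was called at 6 h, was not called at 48 h and was smaller there (113 rises and 32 falls). It was gained where the effect was called at 48 h, was not called at 6 h and was larger there (79 rises and 110 falls). In 64 crossing genes 1 time was called, and the effect at the other time was not called but its 95% interval lay wholly on the opposite side of 0. The effect kept its sign and was called at both times in 50 damped genes, smaller at 48 h, and in 13 strengthened genes, larger at 48 h. In the last 93 genes the difference was called but they met none of these patterns, and 91 of them were called at neither time. Against these stand effects whose difference between times was not called, which does not show that they were steady. Most of those called at 48 h were not called at 6 h. Of 284 genes raised at 6 h (2.36% of genes tested), 99 were not called in the difference, and of 125 genes lowered at 6 h (1.04%) the same held for 69. At 48 h 616 genes were raised (5.12%) and 825 lowered (6.86%), and the difference was not called for 448 and 688 of them.

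**Figure D1:**
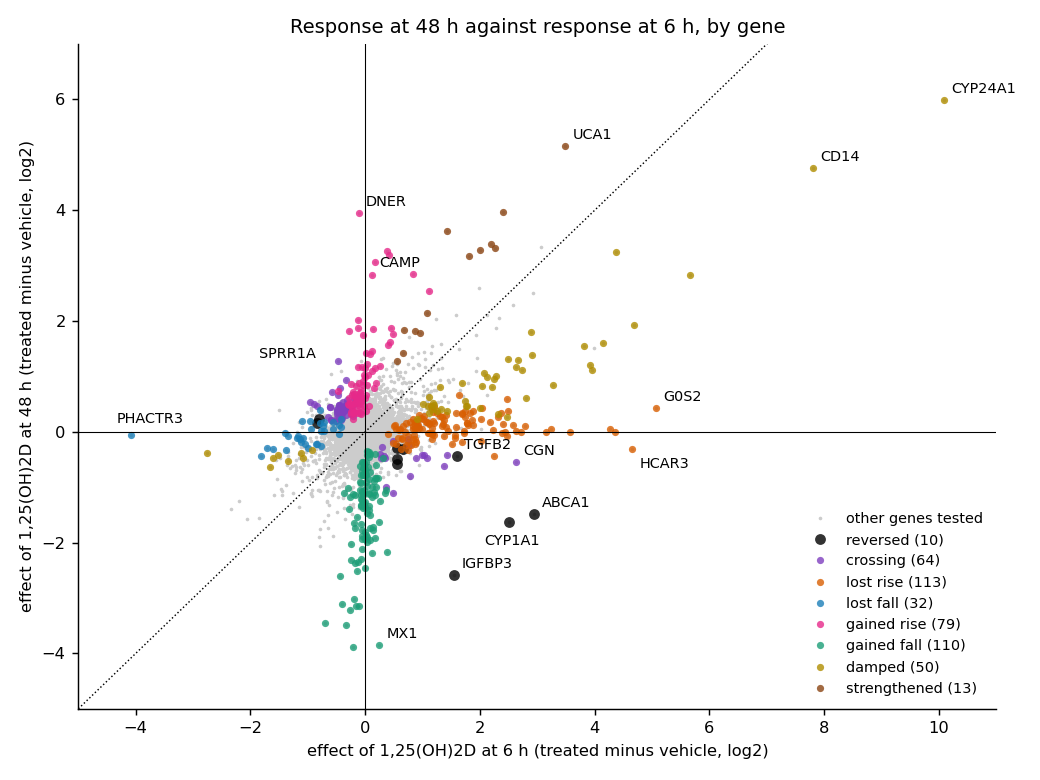
Effect of 1,25(OH)2D at 6 h (horizontal axis) against the effect at 48 h (vertical axis), both as treated minus vehicle on the log2 scale, with 1 point for each of 12026 genes and colours for the patterns of response. On the dotted line the effects are equal. Lost responses lie along the horizontal zero line, gained ones along the vertical zero line, and the 10 reversed genes, drawn in black, lie in the upper left and lower right.

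Keratins of both basal and simple epithelium were bright. Of 9 basal markers 6 were tested, KRT5 and KRT14 among them, and their mean lay between 12.66 and 13.39 (log2 intensity) over the 16 arrays, whereas TP63, KRT17 and NGFR were not tested. The mean of the keratins of simple epithelium, KRT7, KRT8, KRT18 and KRT19, lay between 13.02 and 13.92. Of 10 luminal markers 3 were tested, and their mean lay between 3.23 and 3.63 over the 16 arrays, near the dim end of the scale, while the other 7 were not tested. None of 6 neuroendocrine markers was tested, 2 of 8 leukocyte markers (PTPRC and LYZ, mean 3.21 to 3.59) and 3 of 6 endothelial ones (mean 3.43 to 4.66). Of 8 fibroblast markers 3 were tested, and their mean was higher, between 6.69 and 7.33. Of the markers tested, the difference between times was called for KRT15 and, among 3 fibroblast markers, for COL1A1, both lower at 48 h, and that of COL1A1 lost the call in 19 of 27 other settings. The within-group SD averaged 0.27 for vehicle and 0.26 for 1,25(OH)2D at 6 h against 0.11 and 0.16 at 48 h, so the precision of the difference was set mainly by the 6 h arrays. Its median standard error was 0.19. Replicate 1 of vehicle at 6 h lay farthest out on the first principal component of the deviations from the group means, and without it 1116 probe sets were called in place of 933. In bulk RNA a lower share of cells with a transcript and less of it per cell cannot be told apart.

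The largest reversal was that of ABCA1, which encodes the transporter that moves cholesterol and phospholipid out of cells. Its values were 5.42, 6.49, 6.46 and 6.46 with vehicle and 8.79, 8.84, 9.69 and 9.29 with 1,25(OH)2D at 6 h, and 6.61, 6.86, 6.59 and 6.78 with vehicle and 4.91, 5.24, 5.08 and 5.66 with 1,25(OH)2D at 48 h. All treated arrays lay above all vehicle arrays at 6 h and below all of them at 48 h. The effect was 2.95 at 6 h (7.71-fold higher) and -1.49 at 48 h (2.8-fold lower), and the difference of -4.43 ± 0.35 (SE) had an adjusted p of 3.41e-06. A second probe set gave a difference of -5.46.

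CYP1A1, a cytochrome P450 that oxidizes polycyclic aromatic hydrocarbons, followed the same course. It measured 6.82, 6.24, 5.69 and 6.11 with vehicle and 9.04, 8.76, 8.48 and 8.62 with 1,25(OH)2D at 6 h, and 7.49, 7.20, 7.01 and 7.30 with vehicle and 5.85, 5.50, 5.48 and 5.66 with 1,25(OH)2D at 48 h. Again the arms did not overlap at either time, with treated arrays high at 6 h and low at 48 h. Its effect went from 2.51 to -1.63, a difference of -4.14 ± 0.28 (adjusted p = 4.67e-07).

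IGFBP3, a secreted binding protein of the insulin-like growth factors, was bright in both arms at 6 h. Its arrays gave 11.21, 11.20, 11.85 and 11.12 with vehicle and 12.58, 12.48, 13.38 and 13.13 with 1,25(OH)2D at 6 h, and 9.60, 9.64, 9.80 and 9.46 with vehicle and 6.92, 7.38, 6.66 and 7.21 with 1,25(OH)2D at 48 h. The effect turned from 1.55 to -2.58 (2.92-fold higher, then 5.98-fold lower), while vehicle itself fell by 1.72 between the times and 1,25(OH)2D fell by 5.85. The difference was -4.13 ± 0.30 (adjusted p = 1.45e-06). TGFB2, which encodes a ligand of the TGF-beta receptors, measured 5.95, 6.94, 7.38 and 6.98 with vehicle and 8.14, 8.02, 8.93 and 8.55 with 1,25(OH)2D at 6 h, and 7.57, 7.62, 7.33 and 7.36 with vehicle and 7.11, 7.03, 6.88 and 7.09 with 1,25(OH)2D at 48 h. Its late decrease was small beside its early increase, -0.44 against 1.60, and of 3 probe sets 2 were reversed and the third was a lost rise.

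Among the other reversals from higher to lower were HBP1, a transcriptional repressor (0.55 then -0.58), the receptor of tumour necrosis factor TNFRSF1A (0.66 then -0.31), TUFT1 (0.55 then -0.49) and ZFYVE1 (0.55 then -0.29). A course in the other direction was called for LYSMD4 (-0.81 then 0.23) and for GLUL, which encodes glutamine synthetase. GLUL measured 13.78, 13.99, 13.65 and 13.91 with vehicle and 13.22, 13.08, 12.86 and 12.83 with 1,25(OH)2D at 6 h, and 14.32, 14.32, 14.36 and 14.38 with vehicle and 14.49, 14.46, 14.53 and 14.51 with 1,25(OH)2D at 48 h. Treated arrays were all lower at 6 h and all higher at 48 h, the late increase being only 0.15, and 3 further probe sets gave 0.35, 0.44 and 0.46 at 48 h. Asking for a 1.5-fold change at both times left 3 reversals, ABCA1, CYP1A1 and IGFBP3. ABCA1 and CYP1A1 were reversed in all of 24 other settings, IGFBP3 in 21, and the others in 6 to 17, with array weights, the stricter filter and the mean of probe sets not among these settings. The count was moved by single arrays. It was 3 without vehicle replicate 2 or replicate 4 at 6 h, 4 without 1,25(OH)2D replicate 4 at 6 h, 5 without its replicate 1 or 2, 6 without vehicle replicate 2 at 48 h, and 17 without 1,25(OH)2D replicate 2 at 48 h.

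**Figure D2:**
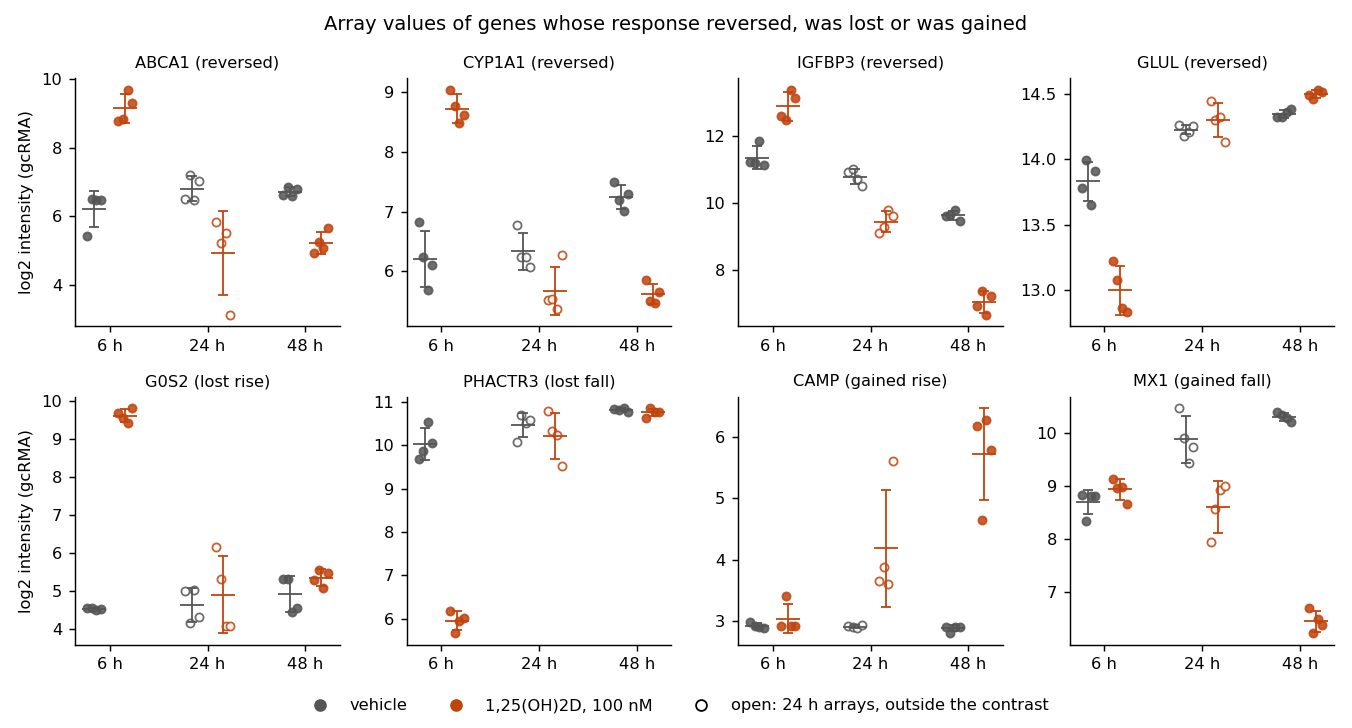
Log2 intensity (vertical axis) of 8 genes in every array at 6, 24 and 48 h (horizontal axis), with vehicle in grey and 100 nM 1,25(OH)2D in orange. Horizontal bars are means of 4 arrays and whiskers SDs, and open points are 24 h arrays, which were not part of the contrast. Treated arrays of ABCA1, CYP1A1 and IGFBP3 change from above vehicle to below it, GLUL does the reverse, G0S2 and PHACTR3 return to vehicle, and CAMP and MX1 part from vehicle late.

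The 64 crossing genes were mostly low at 6 h and high at 48 h (46 genes), and 18 ran the other way. CGN, which encodes the tight junction protein cingulin, had the largest difference. CGN measured 2.94, 3.04, 3.28 and 3.26 with vehicle and 5.68, 5.18, 5.86 and 6.30 with 1,25(OH)2D at 6 h, and 3.27, 3.22, 3.24 and 3.72 with vehicle and 2.60, 3.10, 2.68 and 2.84 with 1,25(OH)2D at 48 h. Its early increase of 2.62 was called, and its late decrease of -0.55 just missed the threshold (adjusted p = 0.0539). At 48 h its means were 3.36 with vehicle and 2.81 with 1,25(OH)2D, near the filter level of 3.2. A second CGN probe set went from 1.58 to -0.09, and its difference was not called (limma adjusted p = 0.0902). TSLP, an epithelial cytokine, went from 1.37 to -0.62, and NRP1, a receptor of semaphorins and of vascular endothelial growth factor, from 1.43 to -0.41. For HRH1 (a histamine receptor), LAMP3 and DLL1 (a Notch ligand) it was the late decrease that was called, at -0.80, -1.10 and -0.99. SPRR1A, a precursor of the cornified envelope of squamous cells, crossed upwards from -0.47 to 1.28, as did the mitochondrial methionyl-tRNA synthetase MARS2 (-0.90 then 0.50). The 2 SPRR1 genes are near-identical in sequence, and how far their probes share transcripts was not tested.

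Lost rises were the largest class with an early increase. They made up 39.8% of the genes raised at 6 h, and their median effect was 1.20 at 6 h and 0.09 at 48 h. In 86 of 113 (76.1%) the 95% interval at 48 h lay within a 1.5-fold change either way, against 82.7% of all genes tested. G0S2, an inhibitor of the lipase that breaks down stored triglyceride, measured 4.56, 4.55, 4.52 and 4.54 with vehicle and 9.68, 9.55, 9.40 and 9.80 with 1,25(OH)2D at 6 h, and 5.33, 5.33, 4.46 and 4.57 with vehicle and 5.29, 5.57, 5.08 and 5.48 with 1,25(OH)2D at 48 h. Treated and vehicle arrays overlapped at 48 h, where the effect was 0.43 (95% interval -0.10 to 0.96) after 5.07 at 6 h (33.5-fold). HCAR3, a receptor of hydroxylated fatty acids that is nearly identical to HCAR2, went from 4.65 to -0.30, and here vehicle rose by 1.40 while 1,25(OH)2D fell by 3.56. GEM, a small GTPase, ARSI, SHE and the protease ADAMTS15 were near the dim end of the scale in vehicle at both times, and their effects at 48 h lay between -0.01 and 0.05 after 3.24 to 4.36 at 6 h. Among the groups of the contrast, their mean was over 3.2, the level of the filter, only with 1,25(OH)2D at 6 h.

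PTGS2, the inducible cyclooxygenase of prostaglandin synthesis, measured 3.72, 4.56, 5.04 and 4.86 with vehicle and 6.90, 6.43, 7.90 and 7.46 with 1,25(OH)2D at 6 h, and 3.86, 4.84, 4.62 and 4.66 with vehicle and 4.91, 4.38, 4.02 and 4.75 with 1,25(OH)2D at 48 h. Its increase of 2.62 was gone at 48 h, where the arms overlapped and the interval ran from -0.58 to 0.62. The early growth response factor EGR3 went from 2.38 to -0.01 and the retinoic acid hydroxylase CYP26B1 from 2.47 to -0.07. NFKBIA, the inhibitor of NF-kappa-B, rose by 1.44 at 6 h and showed 0.01 at 48 h, with vehicle itself 1.15 higher at 48 h than at 6 h. AKAP12, a scaffold of protein kinase A, was a special case. It measured 5.22, 6.43, 7.44 and 6.75 with vehicle and 8.93, 8.44, 9.91 and 9.44 with 1,25(OH)2D at 6 h, and 2.46, 2.43, 2.31 and 2.30 with vehicle and 2.35, 2.40, 2.35 and 2.35 with 1,25(OH)2D at 48 h. Both arms ended at the dim end of the scale, so the lost effect went with a fall of 4.08 in vehicle and 6.81 with 1,25(OH)2D, and all 4 of its probe sets were lost rises. In 11 of the 113 lost rises both 48 h group means were under 3.2, the level of the filter.

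Lost falls numbered 32, with a median effect of -0.95 at 6 h and -0.05 at 48 h. PHACTR3, which encodes a regulator of protein phosphatase 1 and of actin, had by far the largest. It measured 9.68, 9.86, 10.53 and 10.04 with vehicle and 6.18, 5.67, 5.95 and 6.03 with 1,25(OH)2D at 6 h, and 10.83, 10.82, 10.85 and 10.77 with vehicle and 10.63, 10.85, 10.76 and 10.77 with 1,25(OH)2D at 48 h. Treated arrays lay about 4 log2 units under vehicle at 6 h and among the vehicle arrays at 48 h, where the effect was -0.06 (95% interval -0.19 to 0.06). The Wnt ligand WNT7A went from -1.34 to -0.07, the planar polarity gene PRICKLE1 from -1.81 to -0.44, and the transcription factors ETS2 and ISL1 from -1.60 to -0.31 and from -1.17 to -0.07. PRICKLE1 lost the call of its difference in 12 of 27 other settings. In KCNJ15, CXXC5 and TFPI2 vehicle fell more between the times than the treated arm did, by 1.99, 1.45 and 1.93 against 0.56, 0.08 and 0.75. DUSP5 and DUSP7, phosphatases that switch off the MAP kinase ERK, fell at 6 h (-0.95 and -0.71) and stood at 0.19 and 0.18 at 48 h. DUSP1 and DUSP10, which act more on the stress kinases p38 and JNK, moved oppositely, from 0.75 and 3.28 to -0.08 and 0.84. Of 17 MAP kinase feedback genes tested 2 were higher (1.98% of all genes) and 2 lower (2.71%) at 48 h in the difference, and the list's median was 0.19.

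Damped responses included the best known targets of the receptor. CYP24A1 measured 4.06, 3.57, 3.52 and 3.48 with vehicle and 13.69, 13.65, 13.90 and 13.72 with 1,25(OH)2D at 6 h, and 4.29, 3.56, 3.66 and 3.51 with vehicle and 9.69, 10.10, 9.87 and 9.33 with 1,25(OH)2D at 48 h. The arms stayed far apart at both times, yet the effect shrank from 10.08 to 5.99, a difference of -4.09 ± 0.27 (adjusted p = 3.65e-07), with vehicle at 3.48 to 4.29 throughout. The lipopolysaccharide co-receptor CD14 shrank from 7.80 to 4.76 and the AP-1 subunit FOS from 4.69 to 1.93. HES1, a transcriptional repressor and a target of Notch signalling, measured 7.61, 7.53, 7.52 and 7.47 with vehicle and 10.08, 10.16, 9.85 and 9.94 with 1,25(OH)2D at 6 h, and 8.63, 8.63, 8.46 and 8.53 with vehicle and 8.72, 8.93, 8.91 and 8.78 with 1,25(OH)2D at 48 h. Its arms did not overlap at either time, but only 0.27 of the early 2.48 was left, and vehicle was 1.03 higher at 48 h. The ligand HBEGF and the thrombin receptor partner THBD also kept a called part, 1.38 after 2.90 and 1.29 after 2.66. A second, dimmer HBEGF probe set gave 2.30 and then 1.98, and its difference of -0.32 was not called (limma adjusted p = 0.849).

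Of 19 tested genes listed as direct targets of the vitamin D receptor from other cells, 11 had a lower effect at 48 h (2.71% of all genes). A higher one was called for 1, CAMP (1.98%). The study also took CD14, SERPINB1, HBEGF, TXNRD1 and CYP26B1 as binding-site candidates from the transcripts most raised at 6 h in these samples. The lower effects of the list at 48 h are thus not independent of the 6 h values. By chromatin immunoprecipitation in RWPE1 cells the paper reported receptor binding at CYP24 (CYP24A1), TRPV6, CYP26B1, AKAP12 and SEMA3B. It reported none for the candidates CD14, SERPINB1, HBEGF and TXNRD1, so their place in the list rests on other cells. AKAP12 is not in the list, and SEMA3B was not tested here. The median effect of the 19 genes went from 2.72 at 6 h to 0.84 at 48 h, and the median difference was -1.62 beside 0.01 over all genes. The called members spread over the patterns. G0S2 and CYP26B1 were lost, CYP24A1, CD14, FOS, DUSP10, TXNRD1, SERPINB1, HBEGF and THBD were damped, and IGFBP3 was reversed. Over 25 other settings 11 to 13 members were lower and at most 1 higher, and with array weights, whose estimate did not converge, 14 were lower and 1 higher. Of 9 tested genes of plasminogen activation 3 were lower in the difference (2.71% of all genes), the activators PLAT (2.25 then -0.43) and PLAU (1.56 then -0.06) and THBD. The list of genes the study chose for RT-PCR, which is not independent evidence since they were picked from these samples, had 8 of 11 lower (2.71% of all genes).

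**Figure D3:**
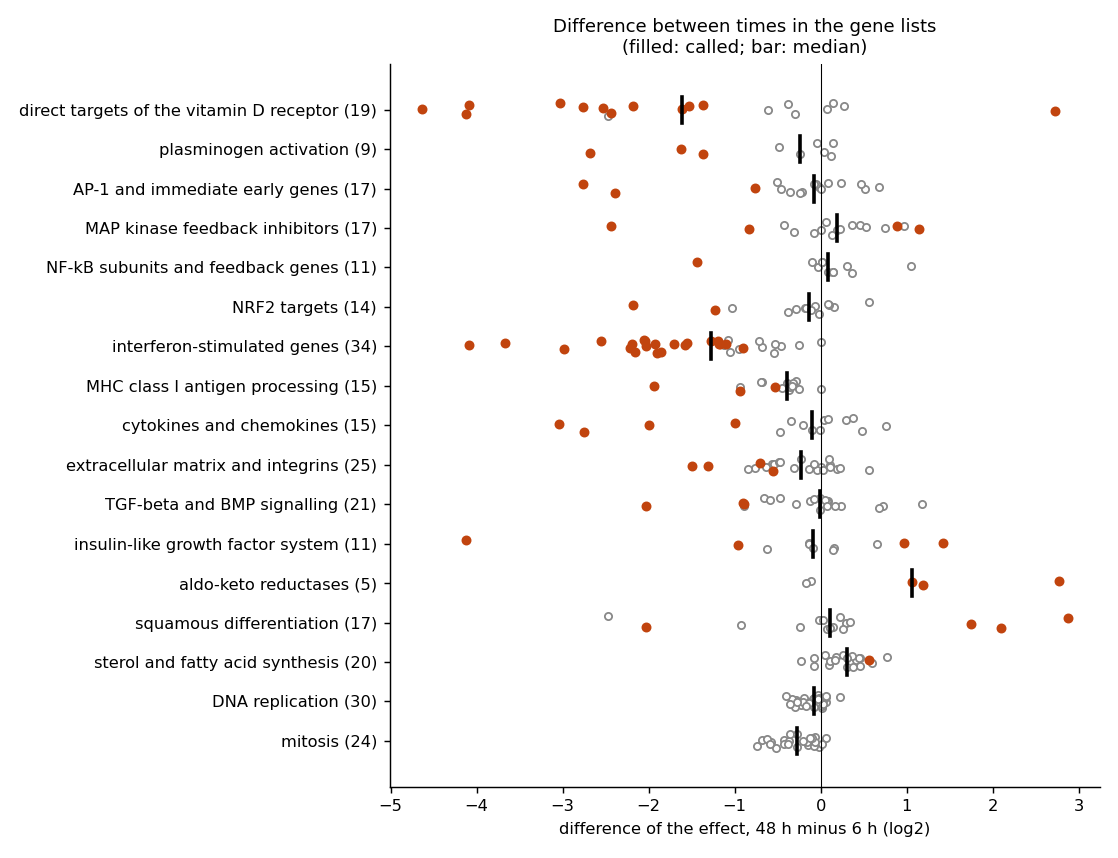
Difference between times (horizontal axis, log2, effect at 48 h minus effect at 6 h) of the tested members of 17 gene lists, 1 point per gene, with the number tested in brackets. Filled points were called and black bars are medians. Targets of the vitamin D receptor and interferon-stimulated genes lie mostly below 0, with medians of -1.62 and -1.28, and the lists of DNA replication and mitosis hold no called gene.

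The strengthened responses were all increases. SGPP2, a phosphatase of sphingosine 1-phosphate, measured 1.97, 2.13, 2.06 and 2.31 with vehicle and 3.17, 3.38, 3.54 and 4.08 with 1,25(OH)2D at 6 h, and 2.62, 2.34, 2.14 and 2.33 with vehicle and 5.69, 6.32, 5.77 and 6.15 with 1,25(OH)2D at 48 h. It rose with 1,25(OH)2D at both times, by 1.42 and then 3.62. A second, dimmer SGPP2 probe set gave 0.13 and then 2.95 and was a gained rise, so the early increase rests on the chosen probe set. With vehicle the means of both probe sets lay under 3.2, the level of the filter, at 6 and 48 h. UCA1, a long noncoding RNA, was at 3.48 and 5.16, and there vehicle fell by 1.66 while the treated arm moved by 0.01. Cytidine deaminase, CDA, reached 3.97 from 2.40. The aldo-keto reductases AKR1C1 and AKR1C2, which reduce steroids and lipid aldehydes and are nearly identical in sequence, went from 2.20 and 2.26 to 3.38 and 3.32. Their differences lost the call in 17 and 10 of 27 other settings, and those of DENND6B and ETNK2 in 14 and 17. Of 5 aldo-keto reductases tested 3 were higher in the difference (1.98% of all genes), the third being AKR1C3, which converts androstenedione to testosterone and was a gained rise.

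Among the 79 gained rises the median effect was -0.08 at 6 h and 0.72 at 48 h, and in 59 (74.7%) the interval at 6 h lay within a 1.5-fold change, against 59.5% of all genes tested. DNER, a Notch ligand related gene, had the largest difference, 4.07 ± 0.29. CAMP, which encodes the antimicrobial peptide cathelicidin, measured 2.99, 2.92, 2.90 and 2.89 with vehicle and 2.92, 3.40, 2.92 and 2.92 with 1,25(OH)2D at 6 h, and 2.91, 2.81, 2.91 and 2.90 with vehicle and 6.18, 4.64, 6.27 and 5.78 with 1,25(OH)2D at 48 h. With vehicle it stayed at the dim end of the scale, and the treated arrays overlapped it at 6 h and all lay above it at 48 h. Among the groups of the contrast, only 1,25(OH)2D at 48 h had a mean over 3.2, the level of the filter. The same held for AKR1C3, KLK5 and SCNN1B, so these and CAMP passed the filter through a group where they were high. CAMP had a difference of 2.72 ± 0.37 (adjusted p = 0.000499). In 8 of the 79 gained rises both 6 h group means were under that level. CAMP is a target of the vitamin D receptor in myeloid cells and keratinocytes, and it was the only member of the target list with a called higher effect at 48 h.

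SPRR1B, a precursor of the cornified envelope and a gained rise, measured 8.38, 7.83, 8.35 and 7.79 with vehicle and 8.17, 8.02, 7.49 and 7.55 with 1,25(OH)2D at 6 h, and 8.08, 8.06, 7.60 and 7.99 with vehicle and 10.08, 9.37, 9.76 and 9.78 with 1,25(OH)2D at 48 h, and its effect went from -0.28 to 1.82. Carbonic anhydrase II, CA2, had an effect of -0.13 at 6 h, where the arms overlapped, and of 2.01 at 48 h, where all treated arrays were higher, and vehicle had fallen by 1.13 and 1,25(OH)2D had risen by 1.02. SCNN1B, a subunit of the epithelial sodium channel, was at -0.13 and 1.87. The kallikrein protease KLK5 varied widely among the treated arrays at 48 h, from 3.70 to 7.43, and its difference lost the call in 17 of 26 other settings. In the list of squamous differentiation 3 of 17 tested genes, KLK5, SPRR1A and SPRR1B, were higher (1.98% of all genes). In the same list 1, KLK10, was lower (2.71%), the median was 0.11, and IVL, SPRR3 and LORICRIN were not tested. KLK10 was a lost rise, 2.36 then 0.33. Among the groups of the contrast, its mean was over the level of the filter only with 1,25(OH)2D at 6 h (4.93). The KLK10 means were 2.57 and 2.61 with vehicle at 6 and 48 h, and 2.94 with 1,25(OH)2D at 48 h. KLK10 thus passed the filter through a group where it was high.

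The binding proteins of insulin-like growth factors moved apart. IGFBP6 and IGFBP2 were gained rises, at 2.53 and 1.02 by 48 h. At 6 h IGFBP6 already stood at 1.11 without being called, and IGFBP2 at 0.05. IGFBP4 was a gained fall at -1.05, IGFBP3 was reversed, and for IGFBP5 and IGFBP7 the difference was not called. Of 11 tested genes of that system 2 were thus higher (1.98% of all genes) and 2 lower (2.71%), with a median of -0.09.

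Gained falls were the most numerous after the lost rises. The 110 genes had a median effect of -0.02 at 6 h and -1.16 at 48 h, and in 72 (65.5%) the interval at 6 h lay within a 1.5-fold change, against 59.5% of all genes tested. The arms took part in different ways. Vehicle rose between the times without a called change of the treated arm in 41 genes, the treated arm fell without a called change of vehicle in 49, and both happened in 14. Interferon-stimulated genes, which are switched on by interferon signalling and many of which encode antiviral proteins, were the largest listed group. Of 34 tested, 22 were lower in the difference (2.71% of all genes) and 0 higher (also 0 at an unadjusted p under 0.05), 33 had a difference under 0, and the median was -1.28. At 48 h 31 were lowered (6.86% of all genes), and at 6 h limma called none, with 1 lowered and 0 raised at an unadjusted p under 0.05. The other 4 genes of the list were not tested. The count of lower genes was 19 to 24 in 25 other settings and 27 with array weights.

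MX1, an antiviral GTPase, measured 8.83, 8.35, 8.82 and 8.81 with vehicle and 9.14, 8.97, 8.99 and 8.67 with 1,25(OH)2D at 6 h, and 10.39, 10.34, 10.29 and 10.21 with vehicle and 6.70, 6.23, 6.50 and 6.38 with 1,25(OH)2D at 48 h. The arms were close at 6 h, and at 48 h vehicle was the higher by 14.5-fold. Its difference was -4.09 ± 0.18 (adjusted p = 5.77e-09). Vehicle rose by 1.60 between the times and 1,25(OH)2D fell by 2.49. For OAS1, a synthetase of the activator of ribonuclease L, vehicle rose by 2.17 and the treated arm moved by only -0.02. Across the list the median change was 0.89 in vehicle and -0.51 with 1,25(OH)2D. The vehicle arm rose in 22 of the 34 (12.0% of all genes) and fell in none, and the treated arm fell in 10 (12.2%) and rose in none. IFI44L, OAS2, XAF1 and IRF9 had differences of -3.67, -2.99, -2.55 and -2.03, whereas that of RSAD2 was 0.01. Probes of the OAS and IFITM families could share transcripts between family members, which was not tested.

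**Figure D4:**
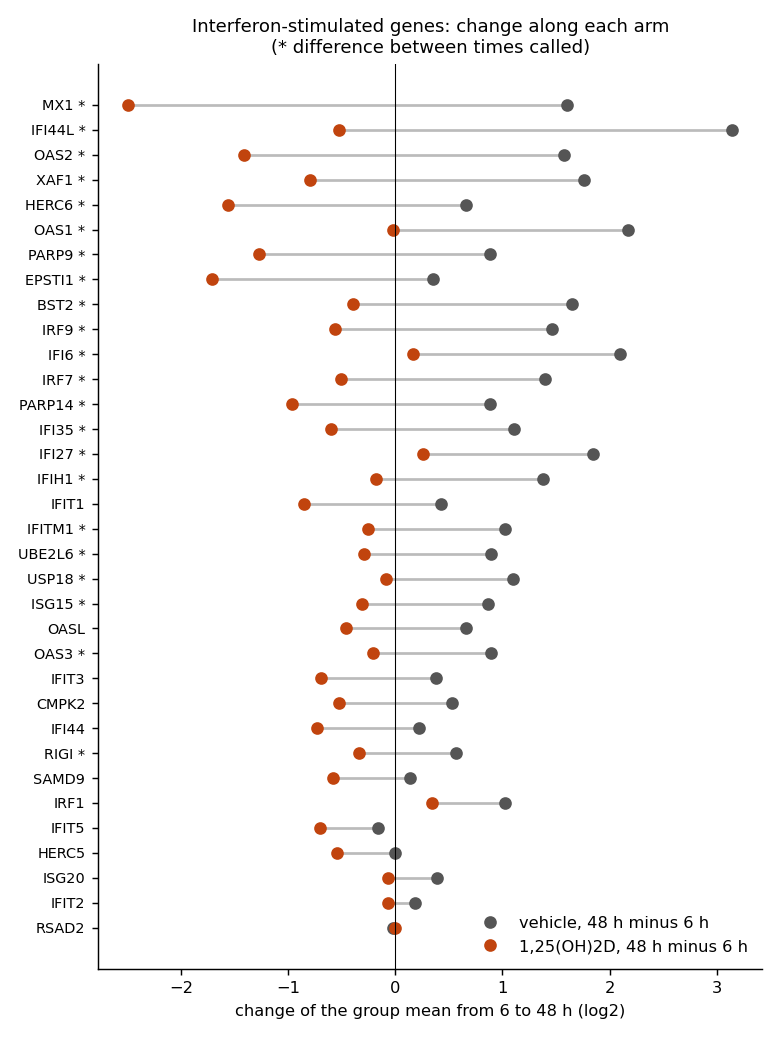
Change from 6 to 48 h (horizontal axis, log2) of the mean of vehicle (grey) and of 1,25(OH)2D (orange) for 34 interferon-stimulated genes, ordered by the difference between times, with a star where that difference was called. The length of each line is the size of the difference. Vehicle lies to the right of 1,25(OH)2D in 33 genes, and in 28 of 34 vehicle lies above 0 and 1,25(OH)2D below it.

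The promoters of these genes are shown for the sequence that interferon-activated factors bind, a pair of GAAA blocks. The letters searched were GAAA, any 2 bases and GAAA again on either strand, counting overlapping matches, within 250 bases before the RefSeq start (GRCh38.p14). An entry was found for 9863 of the 12026 genes tested. Of these 2.27% held the pair, as did 3.07% of all 27305 promoters of that length. Among gained falls it was 17 of 84 (20.2%), among lost rises 2 of 93 (2.15%) and among gained rises 1 of 65 (1.54%). Of the interferon-stimulated genes tested 17 of 29 with an entry held it (58.6%), and of those lower in the difference 10 of 19 (52.6%), and of the gained falls outside that list 7 of 65 (10.8%). The list is not complete, so genes outside it can also be interferon-stimulated, which was not tested. A match describes the letters only and is no evidence of binding. Capitals mark the matches in windows from 7 of these genes, whose differences between times were -1.17, -1.93, -1.58, -2.04, -1.56, -1.86 and -2.06 in this order.
ISG15, GRCh38.p14, chr1:1013364-1013419, plus strand: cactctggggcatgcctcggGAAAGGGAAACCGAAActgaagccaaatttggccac
IFI6, GRCh38.p14, chr1:27672256-27672327, minus strand: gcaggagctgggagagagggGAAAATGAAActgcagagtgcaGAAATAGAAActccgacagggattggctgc
IFI27, GRCh38.p14, chr14:94110608-94110670, plus strand: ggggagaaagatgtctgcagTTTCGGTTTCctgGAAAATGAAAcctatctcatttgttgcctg
BST2, GRCh38.p14, chr19:17405725-17405780, minus strand: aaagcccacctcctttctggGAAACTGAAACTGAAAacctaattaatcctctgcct
IFIH1, GRCh38.p14, chr2:162318685-162318725, minus strand: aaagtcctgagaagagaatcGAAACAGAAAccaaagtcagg
PARP14, GRCh38.p14, chr3:122680790-122680838, plus strand: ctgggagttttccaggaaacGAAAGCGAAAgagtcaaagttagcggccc
EPSTI1, GRCh38.p14, chr13:42992262-42992311, minus strand: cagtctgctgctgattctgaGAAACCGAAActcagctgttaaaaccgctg

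In ISG15 and BST2 overlapping matches run into each other, and in IFI27 the 2 matches lie on opposite strands. The AP-1 letters TGACTCA, searched in the same way, were in 2.57% of promoters of tested genes and 4.16% of all, in 7 of 84 gained falls (8.33%), 4 of 65 gained rises (6.15%) and 3 of 93 lost rises (3.23%). Windows of 4 promoters are shown because both directions of late response hold them, SPRR1A and SPRR1B with a higher effect at 48 h and CXCL14 and SCEL with a lower one. Capitals again mark the match.
SPRR1A, GRCh38.p14, chr1:152983953-152983999, plus strand: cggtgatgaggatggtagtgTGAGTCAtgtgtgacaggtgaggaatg
SPRR1B, GRCh38.p14, chr1:153031042-153031088, plus strand: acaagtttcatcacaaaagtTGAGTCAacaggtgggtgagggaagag
CXCL14, GRCh38.p14, chr5:135579057-135579103, minus strand: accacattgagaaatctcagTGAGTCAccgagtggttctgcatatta
SCEL, GRCh38.p14, chr13:77535637-77535683, plus strand: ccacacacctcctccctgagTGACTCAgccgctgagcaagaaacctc

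A direct repeat of receptor half-sites with 3 bases between them, as the vitamin D receptor is known to prefer, was in none of the promoter entries of any of these patterns and in 0.132% of those of all genes tested, which says nothing of sites farther away. CYP24A1 had no promoter entry and was not searched.

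Of 15 tested genes of MHC class I antigen processing 3 were lower (2.71% of all genes) and 0 higher (1.98%, also 0 at an unadjusted p under 0.05), the proteasome subunit PSMB9 (-1.93), the peptidase ERAP1 (-0.93) and HLA-B (-0.54), and the list's median was -0.39. PSMB9 lost the call in 7 of 27 other settings. IFNK, an interferon made by keratinocytes, measured 6.57, 6.81, 7.40 and 6.92 with vehicle and 6.27, 6.26, 7.34 and 6.74 with 1,25(OH)2D at 6 h, and 6.21, 6.38, 6.23 and 6.61 with vehicle and 3.58, 2.75, 2.78 and 3.45 with 1,25(OH)2D at 48 h. It fell with 1,25(OH)2D at 48 h only, by 3.21 against vehicle, and vehicle itself moved by -0.57. Of 15 tested cytokines and chemokines 4 were lower (2.71% of all genes) and 0 higher (1.98%), with a median of -0.10 and 6 above 0. The called members were gained falls in CCL2 and CXCL14, a crossing gene in TSLP and a lost rise in IL1B. CCL2, a chemokine that draws monocytes, measured 2.74, 2.82, 2.68 and 2.57 with vehicle and 2.68, 2.68, 2.53 and 2.49 with 1,25(OH)2D at 6 h, and 5.67, 5.18, 5.72 and 6.22 with vehicle and 2.65, 2.49, 2.51 and 2.52 with 1,25(OH)2D at 48 h. Its treated arrays stayed at the dim end of the scale while vehicle rose by 2.99, so that the groups were apart by 3.15 at 48 h. Among the groups of the contrast, only vehicle at 48 h had a mean over 3.2, the level of the filter. CCL2 thus passed the filter through a group where it was high. In 4 of the 110 gained falls both 6 h group means were under that level. CXCL14, a chemokine of epithelium, was already at -0.71 at 6 h without passing the test and reached -3.45.

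MMP2, a gelatinase, averaged 7.61 ± 0.22 (SD, n = 4) in vehicle against 7.42 ± 0.30 in treated arrays at 6 h, then 7.88 ± 0.17 against 4.87 ± 0.29 at 48 h. Treated arrays fell below all vehicle arrays at 48 h, by 3.02, and vehicle moved by 0.27 between the times. CCDC80 and MFAP5, proteins of the extracellular matrix, and SCEL, a precursor of the cornified envelope, had differences of -3.15, -2.45 and -2.70. The matricellular genes CCN2 (-1.49) and SPARC (-0.56), the collagen gene COL5A1 (-0.70) and the laminin subunit LAMB3 (-1.31) were the 4 of 25 tested matrix and integrin genes that were lower (2.71% of all genes), none was higher, and the median was -0.22. COL5A1 lost its call in 17 of 27 other settings. LAMB3 was a damped rise, and the other 3 were gained falls. KRT15, a keratin of basal cells, rose by 1.99 in vehicle and stood at -1.92 at 48 h.

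In the lists of DNA replication and mitosis limma called no difference. For 30 tested DNA replication genes the median was -0.08, and for 24 mitosis genes it was -0.27 with 22 under 0. At an unadjusted p under 0.05 the difference was lower for 2 and 3 genes and higher for 0 of either list. In 25 other settings at most 1 gene of each list was called lower, and with array weights 12 replication genes were lower and 2 higher and 6 mitosis genes lower. At 48 h 3 of the replication genes and 7 of the mitosis genes were lowered (6.86% of all genes), and at 6 h none was called. Of 20 tested G1 cyclins, kinases and inhibitors 1 was higher in the difference (1.98% of all genes), and the list's median was -0.04. The higher gene was CCNE1, the cyclin of entry into S phase, which crossed from -0.41 to 0.38 (difference 0.80, adjusted p = 0.0172). Of 20 sterol and fatty acid synthesis genes 17 had a difference above 0, with a median of 0.31. In that list 1, FASN, was called higher (1.98% of all genes), in 7 of 27 other settings too.

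The 24 h arrays, which took no part in the contrast, show the effect between 6 and 48 h. Cultures of 24 h and of 48 h were harvested 24 h after their last change of medium, and those of 6 h after 6 h. Time of exposure and time since fresh medium therefore cannot be told apart between 6 and 24 h. At 24 h the effect lay nearer to its 48 h value than to its 6 h value in 112 of 113 lost rises, 31 of 32 lost falls and all 10 reversed genes, against 63.7% of all genes tested. For gained rises it was 62 of 79 (78.5%) and for gained falls 48 of 110 (43.6%). The median effect at 24 h was 0.04 for lost rises, -0.09 for lost falls, 0.49 for gained rises and -0.60 for gained falls. In 44 of 79 gained rises all treated arrays at 24 h lay above all vehicle arrays (3.04% of all genes), and in 50 of 110 gained falls they lay below (3.05%). For the interferon-stimulated genes this was 12 of 34. Few single genes were called at that time, 62 of all genes tested (0.516%), and the SD within the treated group at 24 h averaged 0.41.

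**Figure D5:**
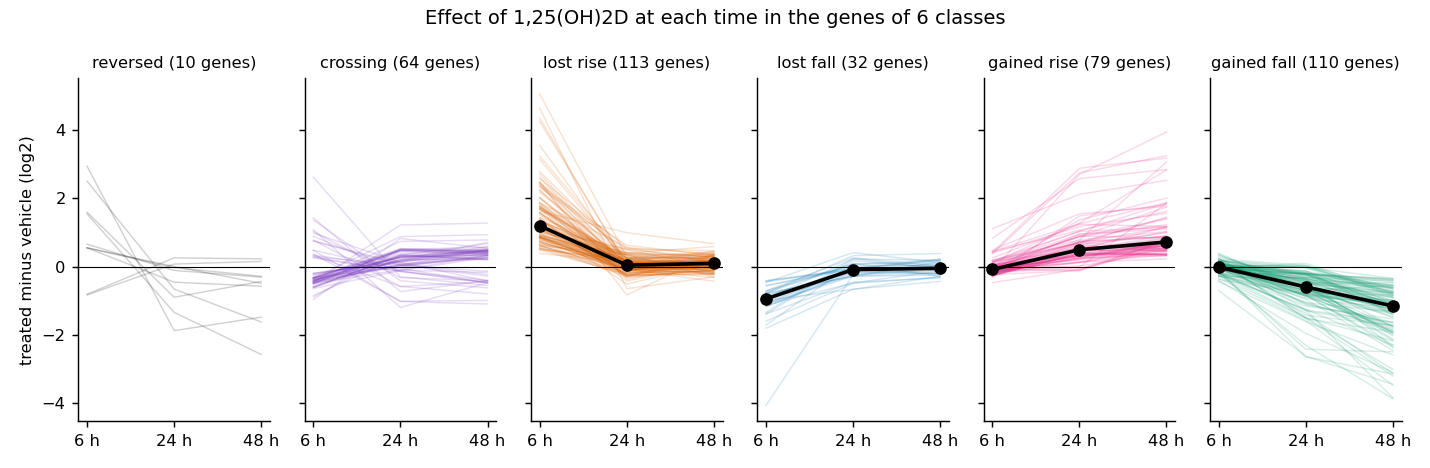
Effect of 1,25(OH)2D (vertical axis, treated minus vehicle, log2) at 6, 24 and 48 h (horizontal axis) for the genes of 6 patterns of response, 1 thin line per gene, with the median in black for the lost and gained ones. Lost responses are near 0 by 24 h, with medians of 0.04 and -0.09, and gained falls pass through -0.60 at 24 h on the way to -1.16.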

How the data were processed

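RNA of RWPE1 cells was hybridized to Affymetrix U133 Plus 2.0 arrays. The deposited values are log2 intensities, normalized and background corrected by the authors with GCRMA, whose version is not given in the sources used here. Its model-based background pulls dim probe sets to a floor, so the size of changes that start or end near that floor is uncertain. The paper found CYP24 (CYP24A1) and CD14 higher by array than by RT-PCR. Of the probe sets, 26036 with a log2 value of 3.2 or more on at least 3 of the 4 arrays of a group were tested. Differences were fitted over 16 arrays, effects at each time over its 8 arrays, with limma 3.58.1 in R 4.3.3 (lmFit and eBayes, no covariate) and Benjamini-Hochberg adjustment over all probe sets tested. The scripts were tested on simulated data. The text names genes from those with the largest differences, up to 15 reversed, 15 crossing, 10 for each lost or gained pattern (arms apart at the time of the call), 5 damped and 5 strengthened, and 3 per list and direction, with all markers. BST2, EPSTI1, IFI27, IFI6, IFIH1, IGFBP5, IGFBP7, IRF9, ISG15, MFAP5, OAS1, PARP14, RSAD2, SERPINB1 and SPARC were chosen after their values were seen. The members and gene lists were chosen with earlier results of these data known. No column was left unused. The number of arrays limits the precision. Genes came from GEO's platform annotation. Of the probe sets tested 21917 had 1 symbol, 1088 several and 3031 none. Alternatives changed the filter, normalization, model, samples and gene summary.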

Additional observations from a re-analysis of the deposited data

Results flagged for a closer look

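The difference between the effects at 6 and 48 h was called for 933 probe sets by the test of the difference itself, and the genes behind that count are described above. Single arrays also stood apart from the other 3 of their group. The gap to the nearest array was divided by the range of the group and set against the 95% critical value of Dixon for 4 values. In 300 groups of 75 genes this was passed in 31 groups of 26 genes, and chance passes about 1 in 20 groups. In replicate 1 of vehicle at 6 h the gap took a share of the range of 0.968 for ABCA1, 0.936 for ARSI, 0.912 for CDA, 0.851 for CYP24A1, 0.872 for FAM117A, 0.850 for MMP2 and 0.877 for TNS3. In replicate 2 of 1,25(OH)2D at 48 h the gap took a share of the range of 0.916 for AKAP12, 0.938 for CD14, 0.862 for DENND6B, 0.909 for DUSP5, 0.856 for FOS, 0.900 for PLAT and 0.867 for TNS3. In replicate 4 of vehicle at 48 h the gap took a share of the range of 0.839 for AKR1C3, 0.963 for CDA, 0.906 for CGN and 0.934 for OAS2. In replicate 2 of 1,25(OH)2D at 6 h the gap took a share of the range of 0.995 for CAMP, 0.905 for CXXC5 and 0.857 for FOS. In replicate 2 of vehicle at 48 h the gap took a share of the range of 0.885 for CAMP, 0.887 for ETS2 and 0.856 for SCEL. In replicate 1 of vehicle at 48 h the gap took a share of the range of 0.864 for DNER and 0.844 for IFI44L. In replicate 3 of vehicle at 6 h the gap took a share of the range of 0.879 for IGFBP3 and 0.849 for SCNN1B. In replicate 1 of 1,25(OH)2D at 48 h the gap took a share of the range of 0.862 for CXXC5. In replicate 2 of vehicle at 6 h the gap took a share of the range of 0.974 for MX1. In replicate 3 of vehicle at 48 h the gap took a share of the range of 0.844 for TFPI2.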

How the results depend on the processing

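Of 117 called named genes 90 kept the call of their difference in each of up to 27 other settings and 0 changed sign. Of 76 other probe sets of called named genes, 73 had the sign of the chosen one and 47 were called with that sign. The main counts were 933 probe sets, 10 reversed, 145 lost and 189 gained genes. Array weights, whose estimate stopped before it converged, gave 8592, 63, 469 and 690. Reversed genes numbered 18 with the calls at each time from the 16-array fit and 3 with a 1.5-fold change as well. Leaving out 1 array gave 657 to 1116 probe sets, 3 to 17 reversed, 95 to 167 lost (95 without 1,25(OH)2D replicate 4 at 6 h) and 132 to 234 gained genes. A spread of its own at each time, an alternative chosen after seeing the data, gave 929 probe sets. The causes were not tested. With the replicate number as a block 874 probe sets and 6 reversed genes were called. The numbers mark no stated pairing: the deviations of 24 same-number pairs correlated between -0.39 and 0.78, with 10 over 0.1. Dim probe sets, near the filter of 3.2, limit what can be said of effects that were lost.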

Other observations

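Some genes outside the lists also changed between the times, and they were chosen after their values were seen. CIART, a repressor of the circadian clock, had an effect of -1.51 at 6 h and 0.40 at 48 h, with a difference of 1.91 ± 0.38 (SE, limma adjusted p = 0.00958, 4 arrays per group). BMAL1, a clock activator, ran the other way, from 0.65 to -0.37 (difference -1.03, adjusted p = 0.0278). NRIP1, a corepressor of nuclear receptors, had a difference of -1.97. CIART, BMAL1 and NRIP1 were called at neither time, so a reversal is not shown for them. URB2, NOP16 and PUS1 crossed from lower to higher, with differences of 0.92, 0.81 and 0.85.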
